A study of Mus musculus with 4 samples.

Results

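Transcripts of 8 genes of the glucocorticoid system were followed through the cell types of mouse fracture callus. The 8 were fixed by name and matched to the gene symbols of the deposited matrices, where all 8 were found among 32285 genes. They were the receptor gene Nr3c1 (ENSMUSG00000024431), the enzyme gene Hsd11b1 (ENSMUSG00000016194) and 6 genes that the receptor is known to induce, Fkbp5 (ENSMUSG00000024222), Tsc22d3 (ENSMUSG00000031431), Zbtb16 (ENSMUSG00000066687), Per1 (ENSMUSG00000020893), Dusp1 (ENSMUSG00000024190) and Sgk1 (ENSMUSG00000019970). Callus was taken at 4 and 7 days post fracture (dpf) from wild-type C57BL/6J mice, 3 months old and male in the methods, that had received either vehicle (control) or K/BxN serum (RA), a serum that induces arthritis and was given on 0 and 3 dpf. Each of the 4 groups, control_4d, control_7d, RA_4d and RA_7d, was 1 droplet-based single-cell library from a pool of calluses, of 4 mice in the labels and 3 in the methods. Library and condition therefore cannot be told apart, no difference below has a replicate check, and every interval is a 95% exact interval that covers counting error only.

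Corticosterone, the glucocorticoid of the mouse, acts through the receptor encoded by Nr3c1, which moves to the nucleus on binding hormone and switches on genes that limit inflammation and alter metabolism. Hsd11b1 encodes 11β-hydroxysteroid dehydrogenase type 1, which regenerates active hormone from its inert 11-keto form inside the cell. Connective tissue fibroblasts, fat and liver are known for the enzyme, and the question asked of these libraries was whether the target genes differed in every cell type at once and which stroma held Hsd11b1.

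The receptor binds a palindrome known as the glucocorticoid response element, and the letters before the start sites are shown as background. Of the 8 genes, 6 had an entry in the RefSeq promoter table (build GRCm38.p6), all but Nr3c1 and Zbtb16. Within the 250 bases before each start, both strands were searched for the full palindrome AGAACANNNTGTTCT, its looser core GNACANNNTGTNC (which lies within the full form), the cyclic AMP response element TGACGTCA and the E-box CACGTG to which clock proteins bind. The full palindrome stood in 3 of 32841 promoters in the table (0.00913%) and the core in 0.387%. Among the members both were found once, the palindrome from -189 to -175 before 1 of the 6 listed starts of Sgk1. The cyclic AMP response element (1.55% of promoters) was found at Dusp1. The E-box (6.02% of promoters) was found at Fkbp5, Dusp1, 1 of the 2 listed starts of Per1 and the same Sgk1 start. Which start was in use in these cells was not tested. In the windows below, which run 5′ to 3′ on the strand of the gene, capitals mark the matches. A match is a likeness of letters and not a measured site.
Sgk1, chr10:21993640-21993889, plus strand: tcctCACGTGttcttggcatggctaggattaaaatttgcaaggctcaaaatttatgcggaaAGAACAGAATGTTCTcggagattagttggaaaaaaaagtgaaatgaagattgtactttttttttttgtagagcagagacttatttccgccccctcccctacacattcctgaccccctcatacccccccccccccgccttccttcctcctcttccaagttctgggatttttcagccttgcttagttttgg
Fkbp5, chr17:28486150-28486399, minus strand: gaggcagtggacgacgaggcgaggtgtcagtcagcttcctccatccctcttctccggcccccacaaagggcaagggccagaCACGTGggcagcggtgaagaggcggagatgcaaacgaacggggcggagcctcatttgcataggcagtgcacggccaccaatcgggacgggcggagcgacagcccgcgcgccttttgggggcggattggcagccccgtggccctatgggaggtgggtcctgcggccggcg
Dusp1, chr17:26508473-26508722, minus strand: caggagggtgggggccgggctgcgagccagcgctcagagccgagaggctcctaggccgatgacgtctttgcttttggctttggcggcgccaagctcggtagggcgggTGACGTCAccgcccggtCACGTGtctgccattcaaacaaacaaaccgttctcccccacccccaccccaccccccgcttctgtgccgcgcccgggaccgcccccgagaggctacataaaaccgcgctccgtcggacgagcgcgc
Per1, chr11:69098699-69098948, plus strand: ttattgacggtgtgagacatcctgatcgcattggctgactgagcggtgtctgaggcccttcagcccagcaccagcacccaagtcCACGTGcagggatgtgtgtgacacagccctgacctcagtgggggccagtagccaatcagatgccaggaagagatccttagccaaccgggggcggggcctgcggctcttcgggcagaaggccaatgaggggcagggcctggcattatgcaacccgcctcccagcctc
The windows of Hsd11b1 and Tsc22d3 held none of the 4 motifs. Only these 250 bases and these letters were searched, so an absent match does not show that a gene lacks a receptor site.

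After filtering, 25479 of 34038 barcodes were kept, between 4110 (RA_4d) and 8223 (RA_7d) per library, with 83405494 to 156567619 unique molecular identifiers (UMIs, 1 for each captured transcript). Median depth was 16093.5 to 17631.5 UMIs per cell, and libraries shared 5 to 15 cell barcodes in pairs. Levels are given as CPM, the UMIs of a gene scaled to the total UMIs of the same cells. Clustering gave 23 classes, each called "-like" from marker genes or, where the markers did not settle it, named by its leading genes. The Ibsp Col2a1 cluster was left without a type name because Col2a1 was at 2.15 and 1.87 CPM at 4 dpf, against 4016 and 2663 at 7 dpf (control and RA). Comparisons by class use the 18 classes at 4 dpf and 21 at 7 dpf that held 50 cells or more in both libraries.

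Over all cells, 3 of the 8 genes were at least 1.5-fold higher in RA at 4 dpf, namely Hsd11b1, Zbtb16 and Fkbp5, and none was 1.5-fold lower. The same held for 6.56% and 3.62% of 17615 genes that reached 50 UMIs in the pair of libraries. At 7 dpf Zbtb16 and Hsd11b1 were that much higher, 2 of 8, and again none was lower, beside 10.5% and 6.9% of 19036 genes. Counted by sign alone, 5 of the 6 targets were higher in RA at 4 dpf, where 55.8% of genes were, and 6 of 6 at 7 dpf, where 51.7% were. The median log2 ratio of the 6 targets was 0.24 and 0.46 at the 2 days, against 0.03 and 0.01 for all genes. Taken as a mean over classes, so that the mix of classes carries no weight, the median was 0.35 and 0.31. For all genes with 50 UMIs in every class it was 0.01 and -0.01. The mix of cells within a class still enters these means. Of 102 pairs of class and target with 50 UMIs, 82 (80.4%) were higher in RA at 4 dpf, beside 51% of all such pairs of class and gene. At 7 dpf the count was 93 of 112 (83.04%), beside 49.2%. These include 12 pairs of Zbtb16 at 4 dpf and 11 at 7 dpf, of which 11 and 10 were higher. The limit was on both libraries together, so a pair could reach it through its RA UMIs. All pairs of a day come from the same libraries and are not separate observations.

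**Figure D1:**
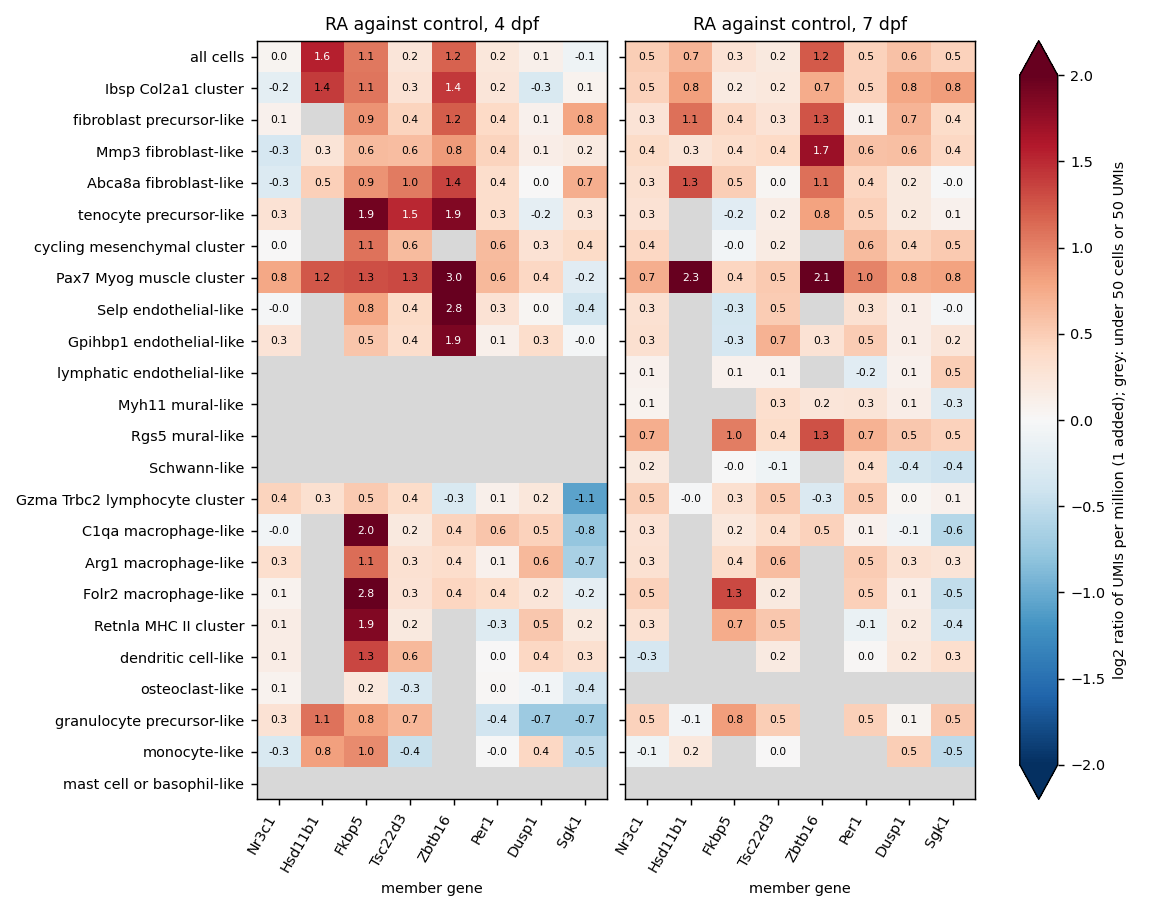
Log2 ratio of CPM (1 added to each) in RA against control for the 8 genes (columns) in all cells and in each class (rows), at 4 dpf (left) and 7 dpf (right). Red is higher in RA, blue lower, and grey marks too few cells or UMIs; the Fkbp5 column is red in all 18 classes at 4 dpf and mixed at 7 dpf.

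Nr3c1, the receptor, was detected in every class and library. Over all cells it stood at 113 CPM in control_4d and 116 in RA_4d, then 117 in control_7d and 166 in RA_7d. The RA_7d library was alone at the high end, 1.41-fold (1.38 to 1.44) above control_7d, while the pair at 4 dpf differed by 1.03-fold (1.01 to 1.06). The Gzma Trbc2 lymphocyte cluster, a mixture of T and natural killer cells, stood at 213 CPM in control_4d and 289.8 in RA_4d, then 275 in control_7d and 386 in RA_7d. It held the highest level among classes of 50 cells in 3 libraries and was level with the Abca8a fibroblast-like class (213 CPM) in control_4d. At 7 dpf the receptor was higher in RA in 19 of 21 classes, with the interval above 1 in 16 and below 1 in 0. At 4 dpf it was higher in 12 of 18, with the interval above 1 in 5 and below 1 in 3. Over all pairs of class and gene with 50 UMIs, 49.2% were higher in RA at 7 dpf and 51% at 4 dpf. The 3 classes with the interval below 1 at 4 dpf were all stromal. They were the Mmp3 fibroblast-like class at 0.793-fold, the Abca8a fibroblast-like class at 0.8298-fold and the Ibsp Col2a1 cluster at 0.869-fold. The muscle cluster had the highest ratio at 4 dpf, 1.72-fold (1.47 to 2.005).

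Hsd11b1 was scarce over all cells, at 5.82 CPM in control_4d and 19.04 in RA_4d, then 6.27 in control_7d and 10.7 in RA_7d. RA was above control by 3.27-fold (2.98 to 3.59) at 4 dpf and 1.7-fold (1.57 to 1.85) at 7 dpf. In all 4 libraries the class with the highest level was not stromal but granulocyte precursor-like, with 62.2 CPM in control_4d and 134 in RA_4d, then 116 in control_7d and 111 in RA_7d. All 4 markers of granulocyte precursors and all 6 of neutrophils were detected there. In the same order of libraries the granulocyte precursor markers summed to 5802, 7768, 1180 and 3915 CPM and the neutrophil markers to 69697, 139235, 107843 and 100691. The first sum was lowest in control_7d and the second in control_4d, and their part in the Hsd11b1 level was not tested. RA and control differed by 2.15-fold (1.77 to 2.64) in this class at 4 dpf and by 0.964-fold (0.772 to 1.198) at 7 dpf. The lymphocyte cluster stood at 41.6 CPM in control_4d and 52.3 in RA_4d, then 74.04 in control_7d and 72.6 in RA_7d, and monocyte-like cells at 20.6, 37.04, 28.8 and 33.5 in the same order.

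**Figure D2:**
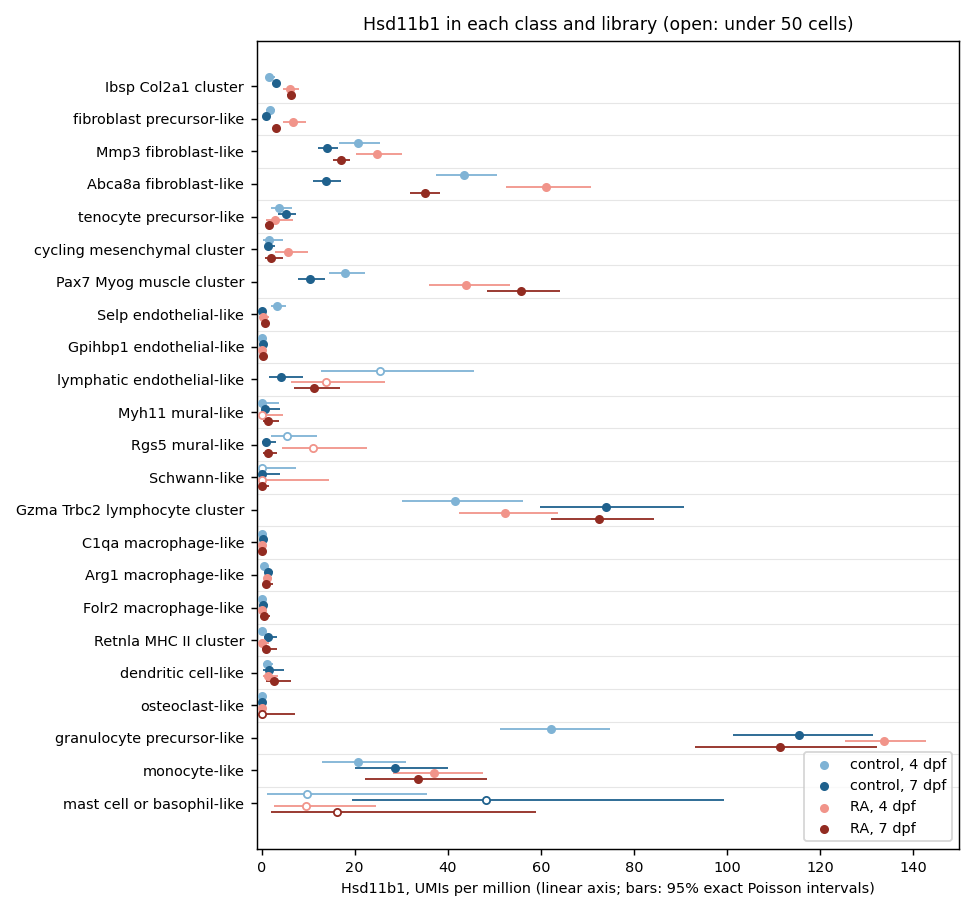
Hsd11b1 level (horizontal axis, CPM) in each class (rows) and library (colours), with 95% exact Poisson intervals as bars and open points for fewer than 50 cells. Granulocyte precursor-like cells stand farthest to the right, and macrophage-like, osteoclast-like and Schwann-like cells lie at or near 0.

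Within the stroma, Hsd11b1 was highest, in 3 of the 4 libraries, in the fibroblasts that carry Myoc and Abca8a. That Abca8a fibroblast-like class held 43.6 CPM in control_4d and 61.1 in RA_4d, then 13.9 in control_7d and 35.1 in RA_7d, second only to granulocyte precursor-like cells at 4 dpf. The Mmp3 fibroblast-like class, led by Apod, Cxcl14, Mmp3 and Gdf10, held 20.7, 24.9, 14.1 and 17.1 in the same order. The intervals of the 2 classes overlapped in control_7d, and the Abca8a class lay above in the other 3 libraries. Every other mesenchymal class was at 6.83 CPM or below in each library, fibroblast precursor-like cells, tenocyte precursor-like cells, the Ibsp Col2a1 cluster and the cycling mesenchymal cluster among them. At a finer clustering (resolution 1), the clusters with markers of committed mesenchymal progenitors held 1.46 to 10.2 CPM and the chondrogenic cluster with Ibsp and Col2a1 held 0 to 4.76. The order of the fibroblasts was not the same there. A cluster of 194 cells led by Apod, Tenm2 and Gdf10 held 50.9, 10.5, 18.98 and 21.04 CPM (control_4d, RA_4d, control_7d, RA_7d), above the cluster with Myoc and Abca8a (49.6, 76.4, 15.02 and 42.1) in both controls and below it in both RA libraries. A fibroblast precursor cluster led by Sfrp4 and Saa3 held 6.5, 11.05, 2.34 and 5.69, and so passed the level just given for its class in RA_4d. Adipocyte markers summed to 0.245 to 1.73 CPM in the Abca8a class, with 1 of the 4 at 0. The 4 synovial lining fibroblast markers summed there to 1460, 1581, 199 and 223 CPM in the order control_4d, RA_4d, control_7d and RA_7d, higher at 4 dpf like Hsd11b1, and their part in its level was not tested. RA stood above control in this class by 1.402-fold (1.13 to 1.74) at 4 dpf and 2.52-fold (2.001 to 3.21) at 7 dpf, and in the Ibsp Col2a1 cluster by 3.58-fold (1.99 to 6.86) and 2.02-fold (1.59 to 2.59). In that cluster the 4 dpf ratio came from only 15 UMIs in control_4d and 52 in RA_4d, and it reached 50 UMIs through RA_4d. In the Mmp3 class the ratio at 4 dpf was 1.199 (0.896 to 1.61), an interval that holds 1.

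Outside the stroma, the muscle cluster, in which Pax7 stem cells and Myog cells in differentiation were not separated, held 17.99 CPM in control_4d and 44.03 in RA_4d, then 10.5 in control_7d and 55.8 in RA_7d. Both RA libraries lay above both controls, by 2.45-fold (1.82 to 3.29) and 5.31-fold (3.92 to 7.32). Beside this, the 4 muscle stem cell markers summed to 556 and 552 CPM in the controls and to 993 and 1114 in RA, and the part of this in the result was not tested. Macrophages carried almost none. In C1qa macrophage-like cells of RA_4d no Hsd11b1 UMI was found in 515 cells, and the exact interval of that share of cells reached 0.714%. In the same library, after each cell was thinned to 4000 UMIs, the share of cells with an Hsd11b1 UMI was 38.1% (exact interval 32.1 to 44.4%) in granulocyte precursor-like cells, 23.3% (exact interval 15.9 to 32.03%) in the muscle cluster, 16.5% (exact interval 10.4 to 24.4%) in the Abca8a class and 15.1% (exact interval 10.1 to 21.4%) in lymphocytes, the last 3 overlapping. Unthinned, the shares were 75.8%, 42.2%, 38.02% and 38.95%, at median depths of 27178, 18231.5, 23834 and 9118 UMIs.

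Granulocyte precursor-like cells were most frequent in RA_4d, the library with the highest all-cell level of Hsd11b1, and least frequent in RA_7d, the library with the next highest. Granulocyte precursor-like cells were 68 of 5470 in control_4d, 252 of 4110 in RA_4d, 96 of 7676 in control_7d and 53 of 8223 in RA_7d. In RA_4d they held 911 of 1588 Hsd11b1 UMIs (57.4%) with 8.16% of all UMIs, whereas mesenchymal classes together held 23.9%. The mesenchymal share was 49.8% in control_4d, 48.4% in control_7d and 64.9% in RA_7d. Of all UMIs, mesenchymal classes held 27.96% in control_4d, 28.8% in RA_4d, 57.7% in control_7d and 66.2% in RA_7d, so that control_4d was the only library in which their share of Hsd11b1 was the larger. With granulocyte precursor-like cells left out, the log2 ratio of Hsd11b1 over all cells went from 1.56 to 0.74 at 4 dpf and from 0.68 to 0.94 at 7 dpf. Over mesenchymal classes alone the ratio was 1.53 (1.31 to 1.78) and 1.99 (1.78 to 2.23). Across 80 sums of a class in a library, which share libraries, the genes whose levels ran most nearly with Hsd11b1 (Pearson r) were G0s2 (0.72), Ccnd3 (0.71), Rp9 (0.69), Arhgef18 (0.69) and Gm47071 (0.65) of 11316 compared.

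**Figure D3:**
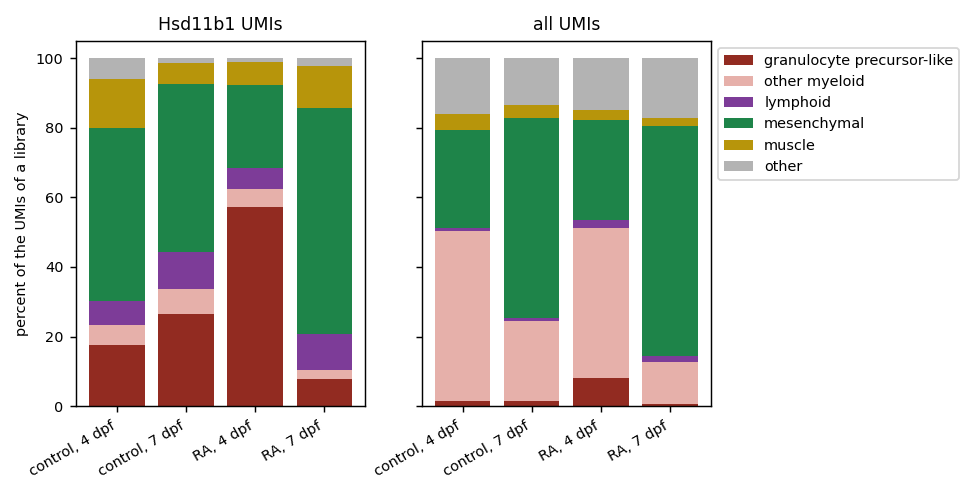
Percent of the Hsd11b1 UMIs (left) and of all UMIs (right) of each library that came from each group of classes, as stacked bars from 0 to 100. Granulocyte precursor-like cells make up 57.4% of the Hsd11b1 UMIs in RA_4d with 8.16% of all UMIs.

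Fkbp5 encodes a chaperone that binds the receptor complex and lowers its affinity for hormone, and its transcript is a widely used readout of receptor activity. Over all cells it stood at 24.9 CPM in control_4d and 52.9 in RA_4d, then 28.05 in control_7d and 34.6 in RA_7d. RA_4d was apart from the other 3 libraries, 2.12-fold (2.02 to 2.23) above its control, while RA_7d was 1.23-fold (1.18 to 1.28) above control_7d. At 4 dpf Fkbp5 was higher in RA in 18 of 18 classes, with ratios from 1.16 to 8.43 and a median of 2.06, and the interval lay above 1 in 17. Of 4391 genes with 50 UMIs in every one of these classes, 23 (0.524%) were higher in RA in all of them. Ordered by the mean log2 ratio over classes, Fkbp5 (1.15) was the third, behind the neutrophil alarmin genes S100a9 (2.76) and S100a8 (2.69) and ahead of Banp (0.70). At 7 dpf it was higher in 14 of 21 classes with a mean of 0.30. Of the 18 classes with 50 UMIs it was higher in 13, beside 49.2% of all such pairs of class and gene.

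**Figure D4:**
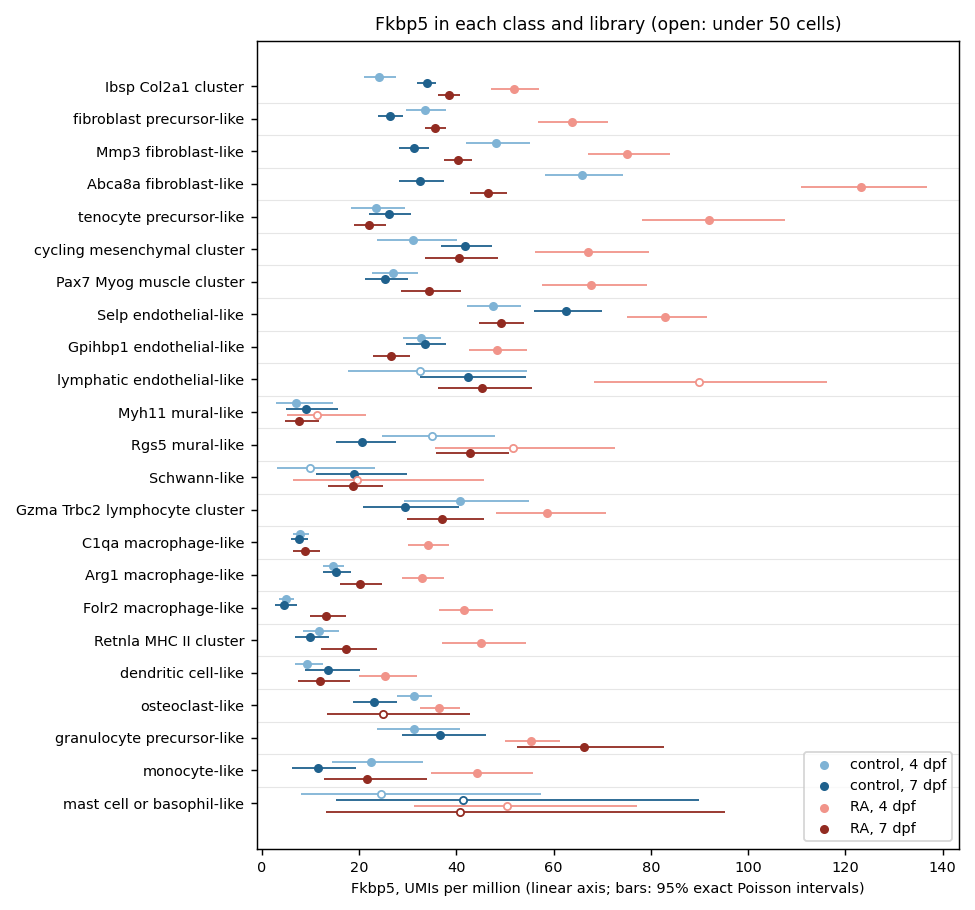
Fkbp5 level (horizontal axis, CPM) in each class (rows) and library (colours), with 95% exact Poisson intervals as bars and open points for fewer than 50 cells. RA_4d lies to the right of control_4d in each of the 18 compared classes, by least in osteoclast-like cells.

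The highest ratios of Fkbp5 at 4 dpf were in macrophages, whose control levels were low. The Folr2 macrophage-like class, with genes of resident macrophages, held 4.94 CPM in control_4d and 41.7 in RA_4d, then 4.67 in control_7d and 13.2 in RA_7d, a ratio of 8.43 (6.04 to 12.02) at 4 dpf. C1qa macrophage-like cells held 7.92, 34.1, 7.58 and 8.94 in the same order, a ratio of 4.31 (3.39 to 5.52). After thinning to 4000 UMIs, 6 of 503 Folr2 cells (1.19%) had a Fkbp5 UMI in control_4d and 46 of 317 (14.5%) in RA_4d. Their median depths before thinning were 16233 and 16370 UMIs. Other myeloid classes went the same way at smaller ratios, the Retnla MHC II cluster from 11.7 to 45.1 CPM, dendritic cell-like cells from 9.404 to 25.3 and Arg1 macrophage-like cells from 14.7 to 32.9. In osteoclast-like cells the levels were 31.3 and 36.4, and the ratio of 1.16 (0.9897 to 1.37) was the only one whose interval held 1.

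In the stroma, Abca8a fibroblast-like cells, high in Hsd11b1, had the highest Fkbp5 level in 3 of the 4 libraries, with 65.9 CPM in control_4d and 123 in RA_4d, then 32.6 in control_7d and 46.5 in RA_7d. Control_7d was the exception, where the cycling mesenchymal cluster (41.8 CPM) and the Ibsp Col2a1 cluster (33.9) were higher. Tenocyte precursor-like cells held 23.4, 91.99, 26.1 and 22.1 in the same order, so that RA_4d alone was high, with a ratio of 3.93 (2.96 to 5.25). The muscle cluster held 27.1, 67.8, 25.3 and 34.4, a ratio of 2.502 (1.97 to 3.17) at 4 dpf. Both blood endothelial-like classes were higher in RA at 4 dpf (Selp 1.75-fold, Gpihbp1 1.48-fold) and lower at 7 dpf (0.784 and 0.7896). The genes whose levels ran most nearly with Fkbp5 were Tspan5 (0.68), Rps20 (0.66), Mcu (0.66), Rpl36a (0.65) and Adamts10 (0.63).

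**Figure D5:**
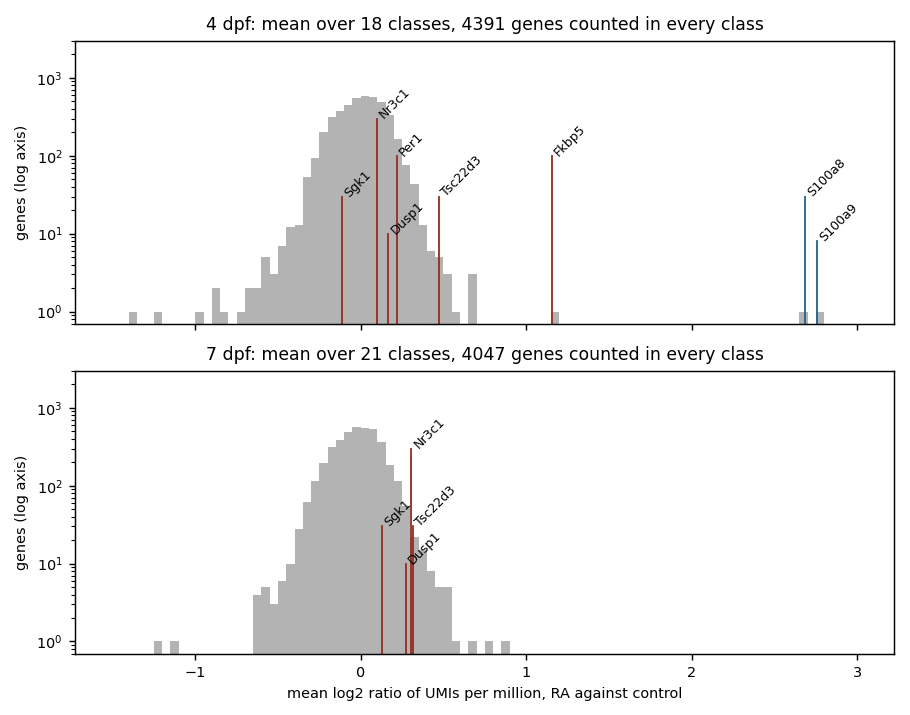
Histograms of the mean log2 ratio, RA against control, over the classes at 4 dpf (top, 4391 genes) and 7 dpf (bottom, 4047 genes), with the number of genes on a log axis and vertical lines at the named genes (line heights carry no value). Fkbp5 lies outside the bulk of genes at 4 dpf, at 1.15.

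Tsc22d3 encodes GILZ, an anti-inflammatory leucine zipper protein. Over all cells it stood at 70.8 CPM in control_4d and 84.3 in RA_4d, then 48.1 in control_7d and 55.01 in RA_7d, so that both 4 dpf libraries lay above both 7 dpf libraries. RA exceeded control by 1.19-fold (1.15 to 1.23) at 4 dpf and 1.14-fold (1.11 to 1.18) at 7 dpf. By class it was higher in RA in 16 of 18 and 20 of 21 classes, with the interval above 1 in 14 and 13. Its mean log2 ratio over classes at 4 dpf, 0.47, ranked 13 of 4391. Tenocyte precursor-like cells had the highest ratio, from 65.5 to 189 CPM (2.88-fold (2.41 to 3.45)), followed by the muscle cluster, from 28.5 to 72.9, and Abca8a fibroblast-like cells, from 89.4 to 185. In osteoclast-like cells it was lower in RA, 51.3 and 40.9 CPM (0.797-fold (0.693 to 0.916)), and in monocyte-like cells 74.4 and 54.7 with an interval that reached 1. Folr2 and C1qa macrophage-like cells, with the most Tsc22d3 in both controls, differed less at 4 dpf (1.22-fold and 1.15-fold). Levels of Irf2bp2 (0.78), Lmbrd1 (0.76), Zfp36 (0.76), Tor1aip1 (0.75) and Ncoa3 (0.75) ran most nearly with it.

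Zbtb16 encodes a zinc finger transcription factor that glucocorticoids strongly induce in many cells. Over all cells it stood at 7.97 CPM in control_4d and 19.4 in RA_4d, then 5.41 in control_7d and 14.03 in RA_7d, and both RA libraries lay above both controls, by 2.43-fold (2.24 to 2.65) and 2.59-fold (2.39 to 2.82). The muscle cluster held 6.27 CPM in control_4d and 59.1 in RA_4d, then 6.81 in control_7d and 32.5 in RA_7d, a ratio of 9.44 (6.35 to 14.4) at 4 dpf from 31 and 137 UMIs. In the endothelium the 4 dpf pair stood far apart, at 1.67 and 17.6 CPM in the Selp class (10 and 84 UMIs) and 3.65 and 16.2 in the Gpihbp1 class, whose 7 dpf ratio of 1.26 (0.811 to 1.98) had an interval that holds 1. Tenocyte precursor-like cells held 36.7 and 135 CPM at 4 dpf and Abca8a fibroblast-like cells 46.05 and 119. At 7 dpf the highest stromal ratio was in the Mmp3 fibroblast-like class, 4.14 against 15.9 CPM (3.83-fold (2.86 to 5.23)). Only 12 classes at 4 dpf and 11 at 7 dpf reached 50 UMIs. Of them 11 and 10 were higher in RA, beside 51% and 49.2% of all such pairs of class and gene. The limit was on both libraries together, so a class could reach it through its RA UMIs, and these counts are no separate support. Among classes under it at 4 dpf, dendritic cell-like, osteoclast-like and monocyte-like cells were lower in RA. The Retnla MHC II cluster, granulocyte precursor-like cells and the cycling mesenchymal cluster were higher, all from few UMIs. Among classes that reached it, the exception on both days was the lymphocyte cluster, where Zbtb16 is also a lineage gene, with ratios of 0.808 (0.545 to 1.21) and 0.812 (0.554 to 1.198).

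Per1, a clock gene that the receptor also induces, stood at 27.3 CPM in control_4d and 32.2 in RA_4d, then 24.7 in control_7d and 34.4 in RA_7d, with ratios of 1.18 (1.12 to 1.24) and 1.39 (1.33 to 1.45). Of the classes with 50 UMIs it was higher in RA in 15 of 18 and 18 of 20, beside 51% and 49.2% of all such pairs of class and gene. For Per1 the interval was above 1 in 6 and 12. Mural cells with Myh11 held the most, at 77.7, 103, 88.4 and 106 CPM in the same order, 45 cells only in RA_4d. Of 12 other clock genes 10 were higher in RA at 4 dpf and 11 at 7 dpf over all cells, with median log2 ratios of 0.15 and 0.27. Among all genes 55.8% and 51.7% were higher, with medians of 0.03 and 0.01. The 4 with the largest difference at 7 dpf were Hlf (1.65-fold), Cry2 (1.51), Per3 (1.43) and Nr1d1 (1.28).

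Dusp1 encodes a phosphatase that switches off stress kinases, and it is both a receptor target and an immediate early gene. It stood at 309.6 CPM in control_4d and 332 in RA_4d, then 306 in control_7d and 457 in RA_7d. In these sums over all cells RA_7d was apart, 1.495-fold (1.48 to 1.51) above its control, while the 4 dpf pair differed by 1.07-fold (1.05 to 1.09). By class the days were closer, with median ratios of 1.18 at 4 dpf and 1.14 at 7 dpf. Dusp1 was higher in RA in 14 of 18 and 19 of 21 classes, with the interval above 1 in 11 and 15. The interval was below 1 in 3 and 1. Over all pairs of class and gene with 50 UMIs, 51% and 49.2% were higher. At 7 dpf the ratio was highest in the muscle cluster (1.71), the Ibsp Col2a1 cluster (1.71), fibroblast precursor-like cells (1.604) and the Mmp3 fibroblast-like class (1.52). At 4 dpf it was lower in RA, with the interval below 1, in granulocyte precursor-like cells (0.603-fold), the Ibsp Col2a1 cluster (0.806) and tenocyte precursor-like cells (0.886), and it was highest against control in Arg1 macrophage-like cells, 269.5 and 421 CPM (1.56-fold (1.49 to 1.64)).

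Sgk1 is a kinase gene under glucocorticoid, mineralocorticoid and growth factor control, and the palindrome shown above lay before 1 of its 6 listed starts. It took opposite directions in different lineages at 4 dpf. Over all cells it stood at 203 CPM in control_4d and 191 in RA_4d, then 207 in control_7d and 286 in RA_7d, with ratios of 0.939 (0.9197 to 0.958) and 1.38 (1.36 to 1.402). Mesenchymal classes together held 269 and 351 CPM at 4 dpf (1.31-fold (1.27 to 1.35)) and myeloid classes 139.6 and 87.8 (0.629-fold (0.605 to 0.654)). Of 18 classes, the interval was above 1 in 6 and below 1 in 8. Fibroblast precursor-like cells (227 and 392 CPM, 1.72-fold) and Abca8a fibroblast-like cells (232 and 384, 1.65-fold) were higher in RA. The lymphocyte cluster (115 and 54.4, 0.472-fold), C1qa macrophage-like cells (144 and 83.2, 0.5799-fold) and Arg1 macrophage-like cells (262 and 167, 0.635-fold) were lower. In these macrophages Fkbp5 and Sgk1 thus differed in opposite directions between the same 2 libraries. Classes also differed in direction at 7 dpf, where Sgk1 was higher in RA in 13 of 21, beside 49.2% of all pairs of class and gene. The interval was above 1 in 11 of them and below 1 in 5 others, with ratios from 0.674 to 1.80.

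From 4 to 7 dpf, Fkbp5 was 1.13-fold (1.07 to 1.18) higher in control and at 0.654 (0.629 to 0.681) of its earlier level in RA over all cells. By class it was lower at 7 dpf in 16 of 17 RA classes, all with the interval below 1, and in 9 of 17 control classes, 4 of them so. Over all pairs of class and gene, 53.1% were higher at 7 dpf in RA and 55.3% in control. Tsc22d3 was lower at 7 dpf in both arms over all cells, at 0.6804 (0.658 to 0.703) of its 4 dpf level in control and 0.653 (0.632 to 0.674) in RA. By class its ratios were nearer 1, with medians of 0.911 in control and 0.895 in RA. It was higher at 7 dpf in 5 of 19 control classes and 5 of 17 RA classes. The interval was below 1 in 7 and 7 classes and above 1 in 1 and 2. Over all cells Zbtb16 was at 0.679 (0.616 to 0.7495) of its 4 dpf level in control and 0.724 (0.678 to 0.772) in RA, and within mesenchymal classes at 0.277 and 0.357. These comparisons share libraries with those between RA and control and are not independent of them.

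Further genes known to be induced by glucocorticoids gave 11 of 20 higher in RA at 4 dpf over all cells, beside 55.8% of all genes. By 1.5-fold 2 were higher (Lcn2 and Pdk4), beside 6.56% of all genes. The median log2 ratio was 0.01, beside 0.03 for all genes. At 7 dpf 16 of 20 were higher, 7 by 1.5-fold, and the median was 0.36. For all genes these values were 51.7%, 10.5% and 0.01. The 4 with the largest difference at 7 dpf were Cd163, a scavenger receptor gene of macrophages (2.46-fold), Errfi1, an inhibitor of growth factor receptors (2.2), Lcn2, a neutrophil granule gene (0.556), and Klf9, a transcription factor gene (1.703). At 4 dpf Klf9 had differed by 1.12-fold and Errfi1 by 1.2-fold, while Cd163 was lower in RA, at 0.669-fold (0.622 to 0.719). Lcn2 was at 445 CPM in RA_4d against 36.3 to 65.4 elsewhere, with granulocyte precursor-like cells most frequent in RA_4d.

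Of the receptor machinery and steroid metabolism, 15 of 16 genes that reached 50 UMIs were higher in RA at 4 dpf and 9 of 16 at 7 dpf. Their median log2 ratios were 0.12 and 0.07. Among all genes 55.8% and 51.7% were higher, with medians of 0.03 and 0.01. The largest differences at 7 dpf were in Nr3c2, the mineralocorticoid receptor gene (1.93-fold), Hsd11b2, whose enzyme inactivates the hormone (1.63), Abcb1a, an efflux pump gene (1.62), and Fkbp4, a chaperone gene related to Fkbp5 (0.715). Cyp11a1, whose enzyme takes the first step of steroid synthesis, was named after its values were seen: over all cells it stood at 0.507 CPM in control_4d and 3.98 in RA_4d. In RA_4d it was at 616 CPM in 38 mast cell or basophil-like cells and at 21.3 in the lymphocyte cluster, and at 2.24 or less in every other class.

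Other values moved with these results between the same libraries. Of 14 immediate early and dissociation genes, 8 were higher in RA at 4 dpf and 14 at 7 dpf, with median log2 ratios of 0.11 and 0.49. Among all genes 55.8% and 51.7% were higher, with medians of 0.03 and 0.01. Klf4 (2.102-fold), Egr1 (1.91), Klf2 (1.85) and Nr4a1 (1.78) differed most at 7 dpf over all cells. In sums over all cells, Dusp1, Per1 and Sgk1 also stood furthest above control on that day. By class this did not hold for Dusp1, whose median ratio was 1.18 at 4 dpf and 1.14 at 7 dpf. The median class ratios of Per1 and Sgk1 were higher at 7 dpf than at 4 dpf. The callus had been dissociated with collagenase, and the part of dissociation in the values of these 3 genes was not tested. At 4 dpf Gm42418, a transcript that overlaps ribosomal RNA, was at 31271 CPM in control_4d and 37526 in RA_4d over all cells. It was higher in RA in 17 of 18 classes, all but granulocyte precursor-like cells, with a mean log2 ratio of 0.44. The pair was at 52042 and 52601 CPM in C1qa macrophage-like cells, where Fkbp5 differed 4.31-fold, and at 21946 and 42729 in tenocyte precursor-like cells, where Fkbp5 differed 3.93-fold. Further down the order of mean log2 ratios from Fkbp5 (1.15), and picked after their values were seen, were Gm19951 (0.66), Gphn (0.59), Lars2 (0.54), Camk1d (0.48) and Cmss1 (0.46). Each was higher in RA in 17 or 18 classes. The pick passed over Banp (0.70), Egr1 (0.67), Hspa1a (0.54), Gm47283 (0.52), Rasa3 (0.50), Tsc22d3 (0.47) and Jdp2 (0.46) in the same stretch of the order. From 4 to 7 dpf in RA, the mean log2 ratio over 17 classes was -0.98 for Fkbp5, 4443 in order of 4448 genes, and -0.98 for Gm42418, the next in order. Gm42418, Gm19951, Gphn, Lars2, Camk1d and Cmss1 were lower at 7 dpf in all 17, and Fkbp5 in 16. Of the genes passed over, Gm47283 (-0.87) was also lower in all 17. No other of them was among the genes at -0.632 or below. In control, Gm42418 was at -0.67. The part in the Fkbp5 values of what moved these transcripts was not tested. In C1qa macrophage-like cells S100a8, an abundant granulocyte transcript, was at 13.7 CPM in control_4d and 59.2 in RA_4d. The part of granulocyte RNA in the Fkbp5 values of macrophages was not tested. At the low end of the order at 4 dpf stood the haemoglobin genes Hbb-bs (-5.14) and Hba-a2 (-4.09), each higher in RA in 1 of 18 classes. From 4 to 7 dpf in RA, Hbb-bs was first in order at 5.39, higher in 17 of 17 classes. The part in the Fkbp5 values of what moved the haemoglobin transcripts was not tested.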

How the data were processed

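Callus cells of 4 libraries were profiled by droplet-based 3' single-cell RNA sequencing. The authors deposited raw UMI counts per gene and cell, made, per the labels, with Cell Ranger 7.0.1 on mm10. These counts were read with Python 3.11.15 and scanpy 1.11.5. Cells with 4000 to 50000 UMIs, 2000 to 7000 genes and at most 8% mitochondrial UMIs were kept, the limits that the study's methods give. Scrublet called 609 doublets (2.39%), which were kept except in an alternative. Libraries were integrated (canonical correlation) and clustered (Louvain) with Seurat 5.3.0 (R 4.3.3) at resolution 0.6, with 15 member and list genes left out of the variable genes. Class names were written by hand after the clusters were seen, from fixed markers and the leading genes of each cluster. For each name a check gene had to be among those leading genes. The limits on marker scores were also set after the clusters were seen.

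UMIs were summed per class and library. Levels carry exact Poisson intervals, ratios exact conditional intervals and shares Clopper-Pearson intervals, all at 95%. For a value of 0 a floor of 3 counts was taken, which is below the upper end of its exact interval. With 1 library per group no test was run and no p-value is given. Log2 ratios had 1 CPM added. In sums over all cells, the mix of cells and the level per cell cannot be told apart. All 8 members were named, with the 4 genes of each other list that differed most between RA and control at 7 dpf over all cells, and the 5 genes most like a member by Pearson r. Members and lists were chosen with earlier results of these data known. Intervals and ratios were tried on simulated Poisson counts with TMM scaling. Such counts follow the model that the intervals assume, so clumping of UMIs in single cells was not tested. Alternatives covered the cell limits, doublets, integration, resolution, variable genes, pseudocount, scaling, UMI limit, weight of cells, class size and depth.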

Additional observations from a re-analysis of the deposited data

Results flagged for a closer look

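The ratio of RA to control lay on opposite sides of 1 at 4 and 7 dpf, with both intervals off 1, for 11 pairs of a gene and a class or the sum of all cells. Each side rests on 1 library per group, and the difference between the days was not tested. The ratio was below 1 at 4 dpf and above 1 at 7 dpf for Sgk1 in all cells (0.939 and 1.38), Nr3c1 in the Ibsp Col2a1 cluster (0.869 and 1.38), Dusp1 in the Ibsp Col2a1 cluster (0.806 and 1.71), Sgk1 in the Arg1 macrophage-like class (0.635 and 1.201), Nr3c1 in the Mmp3 fibroblast-like class (0.793 and 1.302), Nr3c1 in the Abca8a fibroblast-like class (0.8298 and 1.24), Sgk1 in the Pax7 Myog muscle cluster (0.858 and 1.76), Dusp1 in the tenocyte precursor-like class (0.886 and 1.14) and Sgk1 in the granulocyte precursor-like class (0.603 and 1.46), the ratios at 4 and 7 dpf standing in brackets. It was above 1 at 4 dpf and below 1 at 7 dpf for Fkbp5 in the Selp endothelial-like class (1.75 and 0.784) and Fkbp5 in the Gpihbp1 endothelial-like class (1.48 and 0.7896).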

How the results depend on the processing

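The main measures were recomputed under 13 other settings and 2 chosen after seeing the data, the leaving out of granulocyte precursor-like cells and of S100a8, S100a9 and Lcn2 from the totals. Of 316 recomputed main values, each a measure under a setting, 272 stayed within the error interval taken for the reported one and 44 moved beyond it. Part of the 272 could not move. Values over all cells do not use the classes, so other clusterings and class sizes leave them as they were. Shares of Hsd11b1 UMIs do not use the pseudocount, the scaling, the UMI limit, the weight of cells or the class size. For such values the count is no check. None was counted as changing sign. Percents of genes, classes or UMIs were among these values and cannot change sign, so for them this count is no check. Fkbp5 was higher in RA at 4 dpf in every class compared under each alternative. The median log2 ratio of the 6 targets over all cells ranged from 0.19 to 0.29 at 4 dpf and from 0.39 (cells thinned) to 0.48 at 7 dpf.

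The mean log2 ratio of Fkbp5 over classes at 4 dpf was 1.05 without integration, 1.03 at resolution 0.25, 0.88 with 10 CPM added and 1.31 in thinned cells. At 7 dpf it was 0.22 at resolution 0.25, 0.21 with 10 CPM added, 0.38 as a mean over cells and 0.23 in thinned cells. The percent of genes at least 1.5-fold higher at 4 dpf was 5.76 with TMM scaling, 10.3 with a limit of 10 UMIs, 15.1 with none, 7.37 as a mean over cells, 5.52 thinned and 5.95 without granulocyte precursor-like cells. The percent lower was 4.13 (TMM), 6.48 and 12.9 (10 and no UMIs), 2.76 (thinned) and 3.17 (without granulocyte precursor-like cells). At 7 dpf the percent higher was 9.67 (TMM), 13.5 and 18.2 (10 and no UMIs), 13.4 (mean over cells) and 11.4 (thinned), and the percent lower 7.46, 9.03, 13.2, 5.72 and 5.25 in that order.

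The median of the targets from 4 to 7 dpf in RA over all cells was -0.0257 with looser cell limits, -0.11 with 10 CPM added and -0.26 without granulocyte precursor-like cells. Over classes it was -0.21 without doublets, -0.21 as a mean over cells and -0.0976 with classes of 20 cells. Mesenchymal classes held 35.8, 38.9, 17.8 and 48.7% of the Hsd11b1 UMIs of control_4d, control_7d, RA_4d and RA_7d in thinned cells, and 60.4, 65.8, 56.1 and 70.4% without granulocyte precursor-like cells.

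Among single genes over all cells, 8 of 480 values changed sign. These sums do not use the classes, the UMI limit or the class size, so under those settings no value could change. The log2 ratio of Nr3c1 at 4 dpf was -0.000854 with TMM. From 4 to 7 dpf in control, Hsd11b1 was at -0.0501 without granulocyte precursor-like cells, Dusp1 at 0.09204 with looser limits, 0.0457 as a mean over cells and 0.0331 thinned, and Sgk1 at -0.0748 with looser limits and -0.0262 with TMM. In RA, Hsd11b1 was at 0.15 without granulocyte precursor-like cells. The cause of these shifts was not tested. No paired analysis was possible because each group was 1 library, and for the same reason no library could be left out. Levels below 3 UMIs cannot be told from absence at this depth.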
